A study of Mus musculus with 6 samples.

Results

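Pygl and Abhd12b are neighbouring genes of mouse chromosome 12 that differed in opposite directions between Th2-polarized CD4+ T cells with and without Ikzf4. They are described here with Nin and Sav1, which lie beside them, and with Pygb and Gys1, which act in the same pathway as Pygl. All 6 genes, chosen by name, had a row among the 14868 genes of the deposited table. Pygl and Abhd12b were picked for the very difference between genotypes that is given below, so their values are a description and carry no test. Nin and Sav1 were taken for their position and Pygb and Gys1 for their function, with earlier results of these data known.

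Naïve CD4+ T cells, helper T cells that have not met antigen, came from wild-type (WT) mice and from Ikzf4-/- mice, both with the strain background C57BL/6J; the labels give no age, sex or number of animals. Ikzf4 encodes Eos, a zinc finger transcription factor of the Ikaros family. Both genotypes were stimulated on plates coated with anti-CD3 (5 µg/mL) and anti-CD28 (2 µg/mL) and received anti-Ifng (10 µg/mL) and IL-4 (10 ng/mL), conditions that favour the Th2 fate, and were harvested at 72 h. Total RNA was sequenced from 3 WT and 3 Ikzf4-/- libraries, and since nothing in the labels says that these came from separate animals or cultures, p-values measure only the spread between the libraries.

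Glycogen is a branched store of glucose inside cells. Glycogen phosphorylase releases its units as glucose 1-phosphate, and mammals have separate genes for the liver enzyme (Pygl), the brain enzyme (Pygb) and the muscle enzyme (Pygm). Gys1 encodes the glycogen synthase of tissues other than liver. Abhd12b encodes a protein of the α/β-hydrolase fold, related to the lysophospholipid hydrolase Abhd12. Nin encodes ninein, which anchors microtubules at the centrosome, and Sav1 encodes the scaffold protein of the Hippo kinases.

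On GRCm38, by GENCODE M21, Pygl (ENSMUSG00000021069) occupies 70190811 to 70231488 of chromosome 12 on the minus strand. Abhd12b (ENSMUSG00000090121) occupies 70154142 to 70183887 on the plus strand, so the genes point at each other tail to tail, with 6923 bp between their 3′ ends. RefSeq carries Abhd12b on to 70190096, which leaves 718 bp. The 2 genes overlap in neither annotation. The longest Pygl transcript does overlap F730035M05Rik, a noncoding gene of the other strand, by 3648 bp, and Sav1 overlaps the end of Atl1; whether reads were counted by strand is not given in the sources used here, so reads from such stretches cannot be told apart. Nin (ENSMUSG00000021068, 70011435 to 70113717, minus strand) starts 40424 bp before Abhd12b, and Sav1 (ENSMUSG00000021067, 69965012 to 69987002, minus strand) follows 24432 bp beyond the 3′ end of Nin. Pygb (ENSMUSG00000033059) is on chromosome 2 and Gys1 (ENSMUSG00000003865) on chromosome 7. Pygb also has an α/β-hydrolase gene as its tail-to-tail neighbour: Abhd12 (ENSMUSG00000032046) lies 734 bp from its 3′ end, so the arrangement of Pygl and Abhd12b occurs again with the related genes.

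The 5′ ends of Pygl and Abhd12b are 73559 bp apart in RefSeq, so each gene has a promoter of its own, and the 250 bases before a RefSeq start of each are shown for that reason. Capitals mark GGGAA, the core of the site that Ikaros-family zinc fingers bind, searched as GGGAA and as its reverse complement TTCCC. The windows are chr12:70227684-70227933 on the minus strand for Pygl and chr12:70153881-70154130 on the plus strand for Abhd12b (RefSeq sequence, GRCm38.p6, 5′ to 3′).
Pygl: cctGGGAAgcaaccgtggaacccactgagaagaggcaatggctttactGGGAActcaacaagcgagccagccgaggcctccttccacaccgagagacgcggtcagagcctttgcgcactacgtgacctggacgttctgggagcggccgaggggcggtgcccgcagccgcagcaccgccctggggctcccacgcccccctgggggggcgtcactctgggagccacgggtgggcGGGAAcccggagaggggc
Abhd12b: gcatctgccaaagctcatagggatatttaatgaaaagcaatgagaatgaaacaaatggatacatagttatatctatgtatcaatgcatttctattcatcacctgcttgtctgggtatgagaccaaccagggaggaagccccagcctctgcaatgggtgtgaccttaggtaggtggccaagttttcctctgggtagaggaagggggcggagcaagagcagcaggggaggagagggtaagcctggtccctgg
The Pygl window held 3 copies of GGGAA, whose first bases were at -247, -202 and -18 from the start site, and none of TTCCC. The Abhd12b window held neither. Among 32851 RefSeq promoter windows of the same length, 56.2% held at least 1 copy on either strand and 5.88% held 3 or more. Pygb and Sav1 each had 3, Gys1 had 1, and the 3 annotated starts of Nin had 1, 0 and 1. The Pygl window was 69.2% G or C and the Abhd12b window 48.8%, against a median of 52.4%. These letters describe the sequence only, and no binding was measured.

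The deposited values are read counts that the authors had normalized. They imply 34701390 to 40604346 reads per library over the 14868 genes of the table, with less certainty for Ikzf4-/- replicates 1 and 3. WT libraries gave 756, 499.6 and 483 for Ikzf4, against 25.2, 10.5 and 38.2 for Ikzf4-/- libraries, so every library matched its label. WT replicate 1 and Ikzf4-/- replicate 3 lay at the ends of the first principal component, at -41.3 and 30.8, with the other 4 between -12.5 and 17.1. Of the T helper markers, all 8 had values, with a summed level of 114080 to 118510 in WT and 116400 to 121660 in Ikzf4-/-. The 6 Th2 markers summed to 34069 to 42320 in WT and 27281 to 29657 in Ikzf4-/-. Of these 6, limma called 3, Il4, Il13 and Il4ra, lower, against 1.2% of all genes. Il5 and Gata3 had lower means and were not called. Stat6 went the other way, with a mean of 10044 in WT and 10720 in Ikzf4-/-, and was not called. Il4ra, Gata3 and Stat6 had the highest values of the 6 and so weigh most in the sum. Of 11 markers of myeloid cells and neutrophils, cells rich in Pygl, only Cd68 had a row, at 59.6 to 96.1 in WT and 69.3 to 89.0 in Ikzf4-/-; the other 10, Lyz2 and S100a8 among them, had none. The B cell list had 2 of 6 genes with a row, with sums of 51.1 to 83.6 and 58.6 to 90.4, the CD8 list 2 of 2, at 236 to 423 and 232 to 374, and the NK list 2 of 4, at 482 to 1222 and 359 to 811. The 5 erythroid markers had no row, and the part of other cells in the differences below was not tested.

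Pygl was lower without Ikzf4. Its normalized read counts, from replicate 1 to 3, were 151, 113 and 88.3 for WT against 39.3, 41.9 and 21.1 for Ikzf4-/-. The groups did not overlap, and the lowest WT library was above the highest Ikzf4-/- library. The mean was 118 ± 31.7 in WT and 34.1 ± 11.3 in Ikzf4-/- (SD, n = 3 each), 3.45 times higher in WT. The log2 fold change, here always Ikzf4-/- over WT on the log2(value + 1) scale, was -1.78 (SE 0.30), which put Pygl 17th from the lowest among 14864 genes. The highest Pygl value came from WT replicate 1 and the lowest from Ikzf4-/- replicate 3, the libraries at the ends of the first principal component. Without the former the log2 fold change was -1.58, and without the latter -1.48. In bulk RNA, fewer cells with the transcript and less transcript per cell cannot be told apart.

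Abhd12b was higher without Ikzf4. WT libraries gave 31.9, 18.0 and 36.9 normalized read counts, against 107, 92.1 and 106 for Ikzf4-/- libraries. The groups did not overlap: the lowest Ikzf4-/- library was far above the highest WT library. The mean was 28.9 ± 9.81 in WT and 102 ± 8.42 in Ikzf4-/- (SD, n = 3 each), 3.52 times higher in Ikzf4-/-. The log2 fold change of 1.84 (SE 0.28) was 20th from the highest of the 14864. It ranged from 1.54, without WT replicate 2, to 2.04, without WT replicate 3. The WT values rest on few reads: the steps between the deposited values imply 30, 20 and 38, against 106, 88 and 106 without Ikzf4. For Ikzf4-/- replicates 1 and 3 the step was too close to 1 for these reads to be certain.

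The sum of the 2 neighbours was 183, 131 and 125 in WT and 146, 134 and 128 in Ikzf4-/-, so the totals of the groups overlapped while the makeup did not. Per kb of exon, the level of Pygl divided by that of Abhd12b came to 2.71, 3.60 and 1.37 for WT, against 0.210, 0.260 and 0.113 for Ikzf4-/-. Pygl was thus the higher gene of the pair in each WT library and Abhd12b in each Ikzf4-/- library. Within WT, replicate 3 had the lowest Pygl and the highest Abhd12b, while replicate 2 had the lowest Abhd12b with Pygl in the middle. Within Ikzf4-/-, replicate 2 had the highest Pygl and the lowest Abhd12b, while replicate 3 had the lowest Pygl with an Abhd12b level (106) beside that of replicate 1 (107). With 3 libraries per genotype, no relation within a genotype can be read from these orders.

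**Figure D1:**
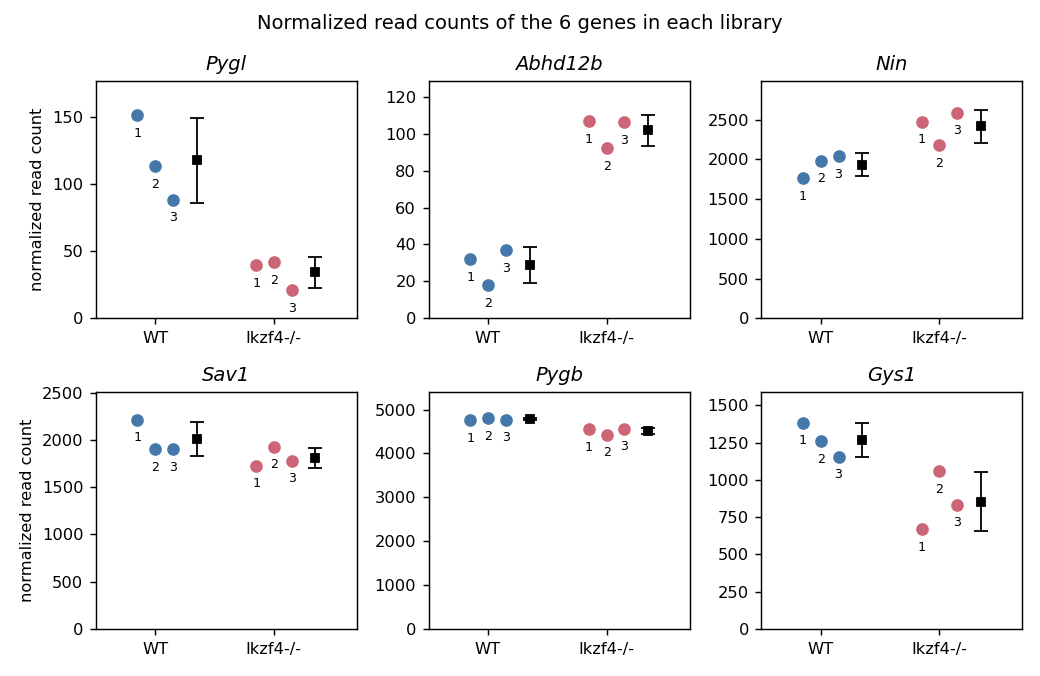
Normalized read counts (vertical axis, starting at 0) of the 6 genes in WT (blue) and Ikzf4-/- (red) libraries, numbered by replicate; black squares with bars are the mean ± SD of 3 libraries. Pygl and Abhd12b separate the genotypes in opposite directions, Nin, Pygb and Gys1 separate them by less, and Sav1 values overlap.

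The other 4 genes differed by less, with log2 fold changes from -0.59 to 0.32. Among the 14864 genes tested with limma, 1.77% were called at an adjusted p under 0.05 (0.572% higher and 1.2% lower in Ikzf4-/-), and of Nin, Sav1, Pygb and Gys1 limma called 0 of 4 (2 of 4, Nin and Gys1, at an unadjusted p under 0.05, against 18.1% of all genes). The authors' deposited table called the same 2 of 4, against 6.34% of all genes there. Values without overlap between genotypes were found for 23.1% of all genes and for 3 of these 4.

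For Nin, the ninein gene, WT libraries gave 1766, 1986 and 2044, against 2476, 2182 and 2587 for Ikzf4-/- libraries. Every Ikzf4-/- library was above every WT library. The means were 1932 ± 147 and 2415 ± 209 (SD, n = 3 each). The log2 fold change was 0.32 (95% interval 0.15 to 0.49) and missed the threshold (adjusted p = 0.0621, limma). It was called without WT replicate 3 (adjusted p = 0.0456, limma) and in the authors' deposited table, where the adjusted p was 0.00470 for a log2 fold change of 0.32.

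Sav1, the Hippo scaffold gene, was read at 2217, 1906 and 1904 in WT and 1728, 1929.5 and 1780.2 in Ikzf4-/- libraries. The groups overlapped, since Ikzf4-/- replicate 2 was above WT replicates 2 and 3. The means were 2009 ± 180.4 and 1813 ± 105 (SD, n = 3 each), and the log2 fold change of -0.15 was not called (95% interval -0.31 to 0.01, adjusted p = 0.322, limma).

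In all, 26 genes of the table have their annotated start within 1 Mb of Pygl, with Pygl, Abhd12b, Nin and Sav1 among them. Of the 24 outside the pair, which still include Nin and Sav1, limma called 1, a share of 4.17% against 1.77% of all genes. The median log2 fold change of the 24 was -0.02 against 0.00 over all genes. The called gene was Arf6, which encodes a small GTPase of membrane traffic and lies 817 kb away. WT libraries gave 26157, 23272 and 21643 for it, against 16849, 18329 and 19048 for Ikzf4-/- libraries. Arf6 fell, by 0.39 on the log2 scale (adjusted p = 0.0289, limma), with no overlap. Arf6 was called in 2 of the 6 fits that left out 1 library each, and its adjusted p was highest, at 0.0858, without Ikzf4-/- replicate 1. Klhdc2, 880 kb away on the same side, stood at -0.20 on that scale (adjusted p = 0.101, limma). Of the 24 genes outside the pair, 4, Nin among them, had an unadjusted p under 0.05 (limma), against 18.1% of all genes. The authors' deposited table called 3 of 22, Arf6, Klhdc2 and Nin, against 6.34% of all genes there.

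The protein-coding gene on the other side of Pygl, Trim9, encodes a ubiquitin ligase known from neurons and ends 13044 bp away on the same strand. It was barely detected, at 29.8, 10.8 and 15.5 in WT and 8.07, 16.8 and 3.01 in Ikzf4-/- libraries. These values overlapped, and its log2 fold change of -1.07 had an SE of 0.59 (adjusted p = 0.373, limma). The next protein-coding gene, Tmx1, for a membrane-bound thioredoxin of the endoplasmic reticulum, had a log2 fold change of -0.11 with overlapping values.

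**Figure D2:**
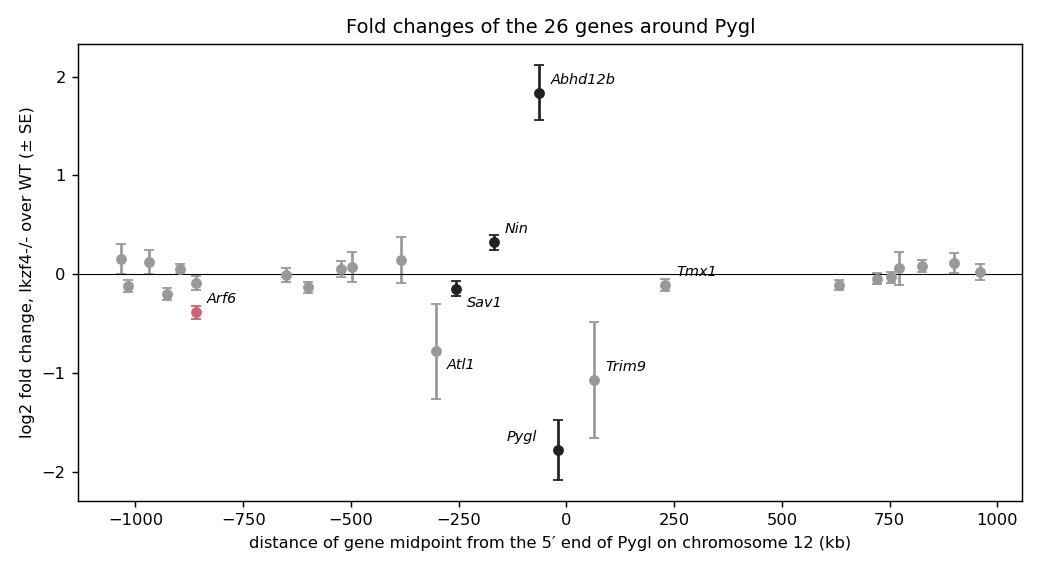
Log2 fold change of Ikzf4-/- over WT (± SE, vertical axis) for the 26 genes of the table whose start lies within 1 Mb of Pygl, by distance of the gene's midpoint from the 5′ end of Pygl in kb (horizontal axis). Black points are Pygl, Abhd12b, Nin and Sav1, the red point is Arf6, called by limma, and grey points were not called. Abhd12b at 1.84 and Pygl at -1.78 stand apart, and the wide bars of Trim9 and Atl1 go with their low counts.

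Protein-coding genes with a tested row were paired in their order along each chromosome, so genes without such a row can lie between them. Of 12410 pairs adjacent in this sense, 14 differed between genotypes by at least 2-fold in both genes, 10 with both in the same direction and 4 in opposite directions. Abhd12b and Pygl were 1 of the 4, and Foxs1 with Ttll9 and Mcf2l with F7 were also among them. The 2-fold limit takes no account of calls, and limma did not call both genes of Foxs1 and Ttll9 or of Mcf2l and F7. Tail-to-tail pairs numbered 3262, and 2 of them differed by at least 2-fold in both genes. Since the pair was picked for its opposite directions, these counts say how it sits in the table and test nothing.

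**Figure D3:**
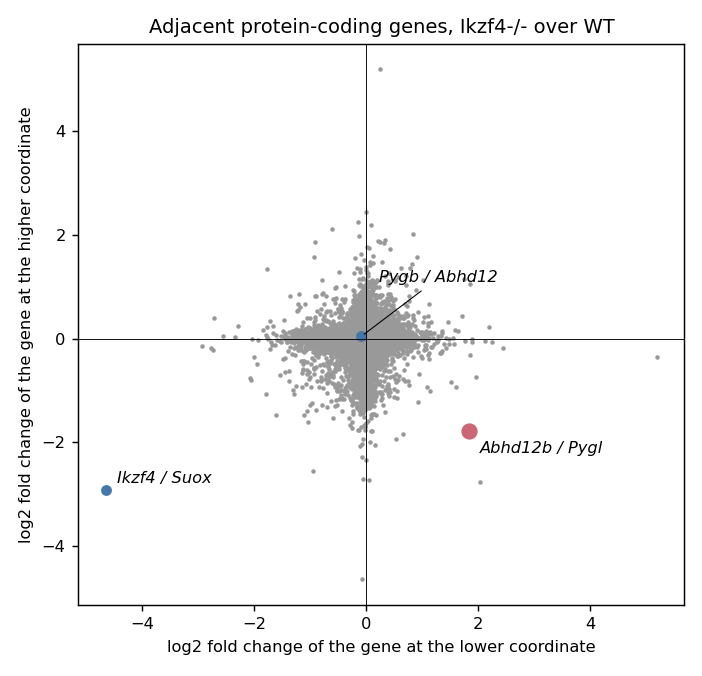
Log2 fold changes (Ikzf4-/- over WT) of 12410 pairs of protein-coding genes adjacent among those with a tested row, so that genes without such a row can lie between them. The gene at the lower coordinate is on the horizontal axis and the one at the higher coordinate on the vertical axis. Abhd12b and Pygl (red) lie at 1.84 and -1.78, the related pair Pygb and Abhd12 near 0, and Ikzf4 with its neighbour Suox at the lower left (both blue).

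The related pair on chromosome 2 showed no such split. For Pygb, WT libraries gave 4756, 4809 and 4773, against 4549, 4430.5 and 4563 for Ikzf4-/- libraries. All WT values were above all Ikzf4-/- values, but the distance was small: 4779 ± 26.9 against 4514 ± 72.7 (SD, n = 3 each), a log2 fold change of -0.08 (95% interval -0.18 to 0.01, adjusted p = 0.342, limma). Abhd12 was at 2319 ± 66.0 and 2393 ± 94.0 (SD, n = 3 each); its values overlapped, at a log2 fold change of 0.04 (95% interval -0.07 to 0.16, adjusted p = 0.718, limma).

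Per kb of exon, Pygb was the highest of the 6 genes in every library, and Pygl and Abhd12b were the lowest. The WT order of mean levels per kb was Pygb (994), Sav1 (382), Gys1 (264), Nin (114), Pygl (17.1) and Abhd12b (7.34), and no neighbours in that order overlapped. In Ikzf4-/- libraries the order was Pygb (939), Sav1 (344), Gys1 (178), Nin (142), Abhd12b (25.8) and Pygl (4.95), where Gys1 (140 to 221) and Nin (128 to 152) overlapped. Pygl therefore made up little of the glycogen phosphorylase transcripts. Its share of the summed level per kb of Pygl, Pygb and Pygm was 2.13%, 1.59% and 1.26% in WT and 0.585%, 0.645% and 0.317% in Ikzf4-/- libraries. The level of Pygb per kb was 58.3 times that of Pygl in WT and 190 times in Ikzf4-/-. Pygm was scarce in both genotypes, at 53.1 ± 4.49 and 54.6 ± 17.4 normalized read counts (SD, n = 3 each), and its genotypes overlapped. In the same way, Abhd12b was 0.890% ± 0.312 of the summed level per kb of Abhd12b and Abhd12 in WT and 2.96% ± 0.294 in Ikzf4-/- (SD, n = 3 each).

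Gys1, the synthase that builds glycogen from UDP-glucose, was read at 1385, 1259 and 1156 in WT and 669, 1060.5 and 834 in Ikzf4-/- libraries. The groups did not overlap, and Ikzf4-/- replicate 2 lay nearest to WT. The mean was 1267 ± 115 in WT and 854 ± 197 in Ikzf4-/- (SD, n = 3 each). The log2 fold change of -0.59 (95% interval -0.90 to -0.28) missed the threshold (adjusted p = 0.0615, limma). Without Ikzf4-/- replicate 2 it was -0.76 and called (adjusted p = 0.0285, limma), and in the authors' deposited table it was -0.57 with an adjusted p of 0.000707.

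Of 40 names on a list of glycogen metabolism, 34 had a row. Leaving out Pygl, limma called 0 of 33, against 1.77% of all genes, with 10 of 33 at an unadjusted p under 0.05, against 18.1%, and the authors' deposited table called 4 of 31 (Gys1, Gbe1, Slc37a4 and Calm3, all lower), against 6.34% of all genes there. Values were below WT with no overlap for 11 of 33 (33.3%, against 12.2% of all genes) and above WT with no overlap for 0 (against 11%). The median log2 fold change of the 33 was -0.09, against 0.00 over all genes. Of the 33, 25 were negative, some of them close to 0, against 7243 of all 14864 genes. The count moved with single libraries. Without Ikzf4-/- replicate 2, limma called 4 of the 33, Gys1, Ppp1r3b, Pgm2 and Slc37a4, against 112 of all 14787 genes in that fit. Without WT replicate 3 it called 1 of the 33, Gbe1 (adjusted p = 0.0274, limma), against 523 of all 14796.

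On the synthetic arm, Gbe1, the branching enzyme, had 967, 836 and 684 in WT and 598, 688 and 565 in Ikzf4-/- libraries. Its groups overlapped only through WT replicate 3 and Ikzf4-/- replicate 2, and the log2 fold change was -0.42 (adjusted p = 0.111, limma). Pgm2, a phosphoglucomutase that GENCODE M21 names Pgm1 (ENSMUSG00000025791), was at 6071 ± 739 in WT and 4519 ± 806 in Ikzf4-/- (SD, n = 3 each), a log2 difference of -0.43 (adjusted p = 0.0809, limma). Ppp1r3b, which brings protein phosphatase 1 to glycogen, was read at 366, 254 and 250.4 in WT and 52.5, 249 and 120 in Ikzf4-/- libraries. Ikzf4-/- replicate 2 was again close to WT for Ppp1r3b, which had a log2 fold change of -1.29 (adjusted p = 0.142, limma). Without that library its log2 fold change was -1.84 (adjusted p = 0.0393, limma). The same library stood closest to WT for Epm2a, the glycogen phosphatase laforin, at 29.8, 28.8 and 21.4 in WT and 7.06, 18.8 and 3.01 in Ikzf4-/- libraries (log2 fold change -1.67, adjusted p = 0.140, limma). In Pygl, by contrast, Ikzf4-/- replicates 1 and 2 differed little, at 39.3 and 41.9, so the order of the Ikzf4-/- libraries was not the same for all these genes.

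On the breakdown arm, the 3 measured subunits of phosphorylase kinase, which switches phosphorylase on, were near 0: Phka2 had a log2 fold change of -0.09, Phkb of -0.01 and Phkg2 of -0.02, each with overlapping values. Slc37a4, the glucose 6-phosphate carrier of the endoplasmic reticulum, was at 2019 ± 43.8 in WT and 1640 ± 162 in Ikzf4-/- (SD, n = 3 each), a log2 difference of -0.30 (adjusted p = 0.0615, limma). Gaa, the lysosomal glucosidase that degrades glycogen by a separate route, had the highest log2 fold change of the list, at 0.10 (adjusted p = 0.472, limma).

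**Figure D4:**
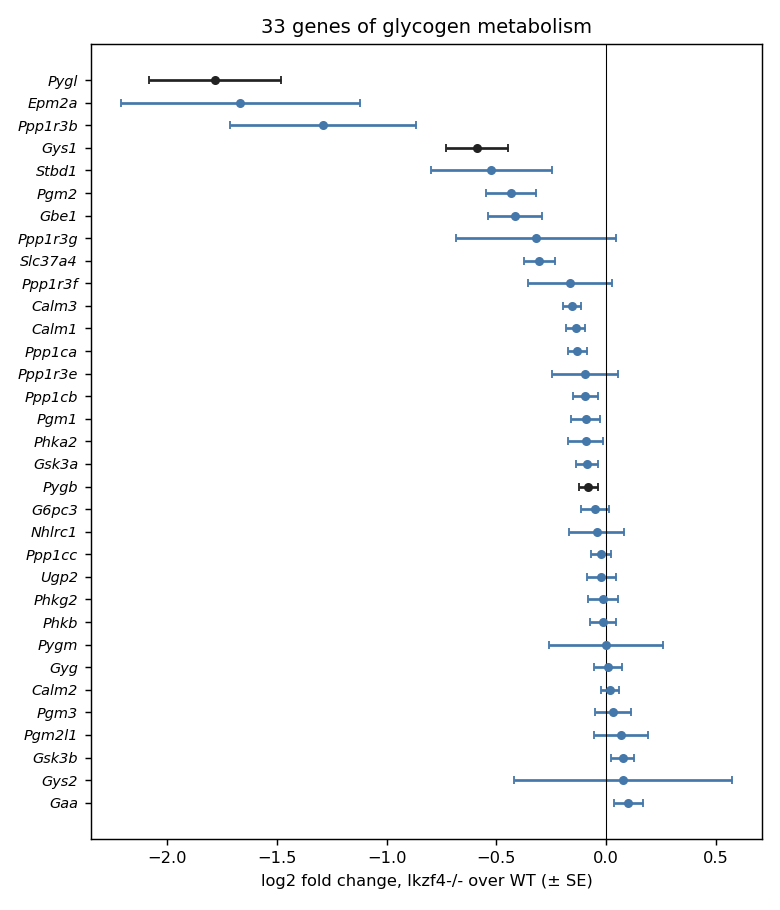
Log2 fold change of Ikzf4-/- over WT (± SE, horizontal axis) for 33 of the 34 measured genes of glycogen metabolism, from lowest to highest; black points are Pygl, Gys1 and Pygb, and blue points the other genes. Pygl is lowest at -1.78, Gaa is highest at 0.10, and 25 of the 33 points are below 0, against 7243 of all 14864 genes.

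In the families of the other genes limma called 1 gene. In the ABHD family limma called 0 of the 18 tested genes other than Abhd12b (5 of 18 at an unadjusted p under 0.05, against 18.1% of all genes, and 1 of 17, Abhd17b, in the authors' deposited table, against 6.34%), and their log2 fold changes ran from -0.40 for Abhd17b to 0.27 for Abhd6. Among 25 measured Hippo pathway genes limma called 1 (4%, against 1.77% of all genes), with 6 of 25 at an unadjusted p under 0.05, against 18.1%. The authors' deposited table called 2 of 24, Ajuba and Rassf1, against 6.34% of all genes there. The gene called by limma was Ajuba, a LIM protein that restrains the Lats kinases. WT libraries gave 1821, 2249.9 and 1709 for it, against 1208.5, 1205 and 1325 for Ikzf4-/- libraries. Ajuba fell, by 0.62 on the log2 scale (adjusted p = 0.0191, limma). Ajuba was called in 3 of 6 fits that left out 1 library, none of them without an Ikzf4-/- library, where the adjusted p was 0.0502 to 0.0660. The kinases that bind Sav1 were not called: Stk4 had a log2 fold change of 0.10 and Stk3 of 0.15. The highest of the list was Tead1, at 0.49 (adjusted p = 0.248, limma). Among 20 centrosome genes limma called 0 (3 of 20 at an unadjusted p under 0.05, against 18.1% of all genes, and 1 of 20, Nin, in the authors' deposited table, against 6.34%), Nin had the highest log2 fold change, and the next was Cdk5rap2, which recruits γ-tubulin, at 0.17 (adjusted p = 0.146, limma). The lowest was Crocc, for a ciliary rootlet protein, at -0.15.

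Over the 6 libraries, the genes whose log2(value + 1) followed Pygl most closely, among those with a mean of at least 50, were Eno1 (Pearson r = 0.996), Hectd3 (0.995) and Thra (0.995). Eno1, for the glycolytic enzyme enolase, was at 139520 ± 10479 in WT and 103960 ± 7930 (SD, n = 3 each), which is a smaller log2 difference (-0.42) than that of Pygl. Those closest to Abhd12b were Pef1 (0.990), Apbb1ip (0.987) and Txnl4b (0.982), with log2 fold changes of 0.07, 0.18 and 0.20. All 6 libraries and the genotype difference are shared by these values, and the 3 were taken from 11599 genes compared. These r values describe the likeness and no more.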

How the data were processed

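RNA-seq values of 3 WT and 3 Ikzf4-/- libraries, prepared by a service company per the labels' protocols, were taken from the authors' table. The submitters' processing notes name Trimmomatic 0.36, STAR 2.5.2b, DESeq2 and the build GRCm38 (mm10), without roles; counting tool, strand and annotation are not given in the sources used here. The deposited sample columns hold a signal, taken here for normalized read counts: in each library 100% of them are whole multiples (within 0.01) of 1 step. For 2 Ikzf4-/- libraries that step was too close to 1 for raw reads to be recovered with certainty, and no count test was run. The authors' log2 fold changes, p-values and adjusted p-values were deposited in the same table, per the file headers.

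Genes averaging 10 or more were kept (14864, leaving out 4), put on the log2(value + 1) scale and fitted with limma 3.58.1 (R 4.3.3) with genotype as the only term and a variance trend. P-values are two-sided and Benjamini-Hochberg adjusted over all genes, with calls under 0.05. Levels per kb use the union of GENCODE M21 exons, and positions were found for 14831 of 14868 genes. Members, gene lists and named genes were chosen with earlier results of these data known. Named were the members, the called, highest and lowest genes of each list, genes of a stated role, and the 3 genes most like Pygl and Abhd12b; Foxs1, Ttll9, Mcf2l, F7, Suox, Klhdc2, Tmx1 and Atl1 were added after their values were seen. A gene of the glycogen list and a pair of adjacent genes are counted but not reported singly here. Replicates differed by more than sampling noise (chi-square per degree of freedom 7.38 to 18.5). This used the implied reads, which are not certain for Ikzf4-/- replicates 1 and 3.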

Additional observations from a re-analysis of the deposited data

How the results depend on the processing

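Pygl, Abhd12b, Sav1 and Pygb kept their direction, and Sav1 and Pygb stayed uncalled, under each alternative run. Leaving out 1 library gave log2 fold changes from -1.97 to -1.48 for Pygl and from 1.54 to 2.04 for Abhd12b. For Nin it gave 0.26 to 0.39 and for Gys1 -0.76 to -0.43. The number of called genes ran from 20 of 14790, without Ikzf4-/- replicate 3, to 523 of 14796, without WT replicate 3. Leaving out WT replicate 2 gave 75, Ikzf4-/- replicate 1 gave 48 and Ikzf4-/- replicate 2 gave 112. Without 1 library, calls outside the pair ran from 0 to 4 of 33 in glycogen metabolism and were 0 of 18 in the ABHD family. They ran from 0 to 1 of 25 in the Hippo list, 0 to 1 of 20 in the centrosome list and 0 to 3 of 24 in the neighbourhood. The 3 in the neighbourhood and the 1 of the centrosome list came without WT replicate 3, the fit with 523 of 14796 genes called. The 4 of the glycogen list came without Ikzf4-/- replicate 2, with 112 of 14787 genes called.

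With the replicate number as a block, 754 of 14864 genes were called, among them the 263. Nin was at 0.32 (adjusted p = 0.0307, limma) and Gys1 at -0.59 (adjusted p = 0.0307, limma). Outside the pair, that fit called 4 of 33 glycogen, 0 of 18 ABHD, 2 of 25 Hippo, 1 of 20 centrosome and 3 of 24 neighbourhood genes. Deviations of same-numbered libraries correlated at 0.145, 0.0122 and 0.142, and those of differently numbered libraries at -0.163 to 0.0491. The labels do not say that equal numbers mark pairs, and these values do not settle it. The main fit therefore has no pairing, and the calls of Nin and Gys1 depend on that choice. The authors' deposited table called 815 of 12849 genes (6.34%), Nin (0.32) and Gys1 (-0.57) among them. Outside the pair, it called 4 of 31 glycogen, 1 of 17 ABHD, 2 of 24 Hippo, 1 of 20 centrosome and 3 of 22 neighbourhood genes. The cause was not tested.

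The Pygl share of phosphorylase transcripts was 2.92% in WT and 0.915% in Ikzf4-/- per longest transcript, and 2.37% and 0.742% with no length, against 1.66% and 0.516%. For other named genes, 382 values kept direction and call, 17 lost the call, 14 gained it and 3 reversed. The reversals were all of Pygm, near 0 throughout, at -0.0052 with quantile scaling and from -0.24 to 0.15 without 1 library. With equal library totals 115 genes were called higher and 154 lower, against 85 and 178. Count tests with edgeR and DESeq2 were planned and not run. No group had the 4 libraries needed to look for a single outlying value, and few reads limit the WT level of Abhd12b.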
